A study of Mus musculus with 48 samples.

Results

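The comparison described here is that of p53 knockout (KO) bone marrow-derived macrophages polarized with LPS and IFN-γ against KO macrophages left unpolarized, both without the study compound. Its members are the 6 vehicle libraries that the titles and descriptions place in those groups, 3 stimulated and 3 unpolarized, of 48 libraries in the series, and the 11779 genes with enough reads to be tested, of 51789 in the deposited table. The series asks how the compound AP-3-84 acts on macrophages of different origin, and these libraries are among its controls. Bone marrow stem cells of p53 KO C57BL/6 mice were turned into macrophages by M-CSF, their growth factor, at 10 ng/mL over 6 days. The stimulated cells were then polarized over 24 h by LPS at 100 ng/mL together with IFN-γ at 50 ng/mL, and every library used here had 4 h with DMSO, the vehicle. The same groups of wild-type (WT) cells, unpolarized or given LPS and IFN-γ, 3 libraries each, are set beside them where a difference is tested. The genotype field of the labels calls all of these cells wild-type. Titles and descriptions, and the design text, separate KO from WT, and they set the groups here. The labels do not say how the p53 allele was made, or whether the unpolarized cells were kept for the same additional day. Nor do they say whether the libraries of a group come from separate animals or cultures. P-values therefore measure only the spread between libraries of a group. That spread was estimated over all 36 bone marrow-derived libraries, including those with the compound or another polarization.

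LPS, a component of the outer membrane of Gram-negative bacteria, is sensed by TLR4, whose adaptors MyD88 and TRIF switch on NF-kB and, through IRF3, interferon-β. IFN-γ signals through the kinases JAK1 and JAK2 to sites known as GAS elements, and type I interferon signals through a complex that holds IRF9 to sites known as ISREs. In macrophages the pair drives inflammatory cytokines, chemokines, nitric oxide synthesis and antigen presentation, and usually halts proliferation. The transcription factor p53 stops the cell cycle and promotes cell death after damage, partly by inducing the cyclin-dependent kinase inhibitor p21, the product of Cdkn1a.

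Counted reads per library ran from 3081707 to 3469740 in unpolarized and from 3625160 to 4109257 in stimulated KO macrophages. Values per gene are CPM, the reads of a gene scaled to the same library total with TMM factors, and a gene is called changed when its edgeR adjusted p-value is under 0.05. Where a gene is said to rise by a value, or a value stands alone in parentheses after it, that value is the log2 fold change of stimulated against unpolarized macrophages. The unpolarized KO libraries stood apart from the other vehicle groups of bone marrow-derived cells. The mean Spearman correlation across genes between libraries of different groups was 0.848 for unpolarized and stimulated KO macrophages, the lowest of the 15 pairs of groups. It was 0.943 for unpolarized and stimulated WT macrophages, 0.946 for stimulated KO and WT macrophages, and 0.893 for unpolarized KO and WT macrophages. Within each of these 4 groups the median was between 0.968 and 0.981. Since the comparison cannot be made without the unpolarized KO libraries, WT levels and tested differences between genotypes are given beside many of the results.

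Trp53, the gene that encodes p53 (ENSMUSG00000059552, GRCm38 chr11:69580359-69591873, plus strand), was read at 3.14, 3.39 and 6.49 CPM in the unpolarized and at 7.97, 9.11 and 3.79 CPM in the stimulated KO libraries, against 13.2, 10.8 and 9.20 CPM in unpolarized and 9.54, 7.42 and 7.30 CPM in stimulated WT libraries. Reads come from the 3′ end of the gene and the deleted part is not known from the labels, so they check the genotype only in part. Trp53 was not called between the KO groups (log2 fold change 0.66, SE 0.41, adjusted p = 0.193), whose libraries overlapped. The p53 target Phlda3, an inhibitor of AKT, had 1.31, 0.923 and 0.811 CPM in unpolarized and 0 in stimulated KO macrophages, at least 4.11-fold lower (adjusted p = 0.00268), and 24.7, 17.2 and 15.3 CPM in unpolarized WT macrophages. Cdkn1a was read at 34.1, 36.6 and 45.7 CPM in unpolarized and at 252, 196 and 247 CPM in stimulated KO macrophages, with no overlap (log2 fold change 2.58, SE 0.30, adjusted p = 1.21e-07). In WT macrophages it had 1114, 865 and 803 CPM before and 687, 609 and 719 CPM after stimulation, so that all 6 KO libraries lay below all 6 WT libraries.

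Of 24 p53 targets tested, 9 rose and 5 fell in stimulated KO macrophages, with a median log2 fold change of 0.74, where 44.5% of all genes tested were called, 22.8% higher and 21.8% lower, and the median of all genes was -0.01. Mdm2, the ubiquitin ligase that degrades p53, rose from 57.4, 64.0 and 53.3 to 213, 173 and 213 CPM (log2 fold change 1.78, SE 0.28, adjusted p = 9.43e-06). The death receptor gene Fas and the kinase gene Plk2 rose by log2 fold changes of 1.61 and 1.99. Sesn1, a sestrin that restrains mTORC1, had a log2 fold change of -3.09, and Ccng1, which encodes cyclin G1, was not called at 25.2, 33.9 and 29.2 against 33.0, 36.2 and 34.6 CPM (log2 fold change 0.24, SE 0.24, adjusted p = 0.433). In these cells, labelled as lacking p53, 20.8% of the p53 list fell, close to the share of all genes tested, and 37.5% of the list rose. In WT macrophages 1 of its members rose and 8 fell, where 15.5% of all genes tested were called, 8.01% higher and 7.49% lower.

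The markers of LPS and IFN-γ polarization separated the 2 KO groups in every library. Saa3, which encodes an acute-phase apolipoprotein made by activated macrophages (GRCm38 chr7:46711998-46715700, minus strand), was read at 55.0, 102 and 18.4 CPM in unpolarized and at 33235, 44342 and 26361 CPM in stimulated KO macrophages (log2 fold change 9.22, SE 1.18, adjusted p = 1.28e-06). Il1b, which encodes the inflammasome-processed cytokine IL-1β, had 18.1, 22.5 and 19.7 CPM before and 509, 1406 and 708 CPM after stimulation (log2 fold change 5.44, SE 0.78, adjusted p = 5.67e-06). Nos2, the inducible nitric oxide synthase, had 0 reads in the 3 unpolarized libraries and 10.2, 17.7 and 8.70 CPM in the stimulated ones, at least 43.4-fold higher (adjusted p = 2.40e-06). In WT macrophages all 3 were called higher too, with log2 fold changes of 7.54 for Saa3, 2.89 for Il1b and 3.63 for Nos2.

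**Figure D1:**
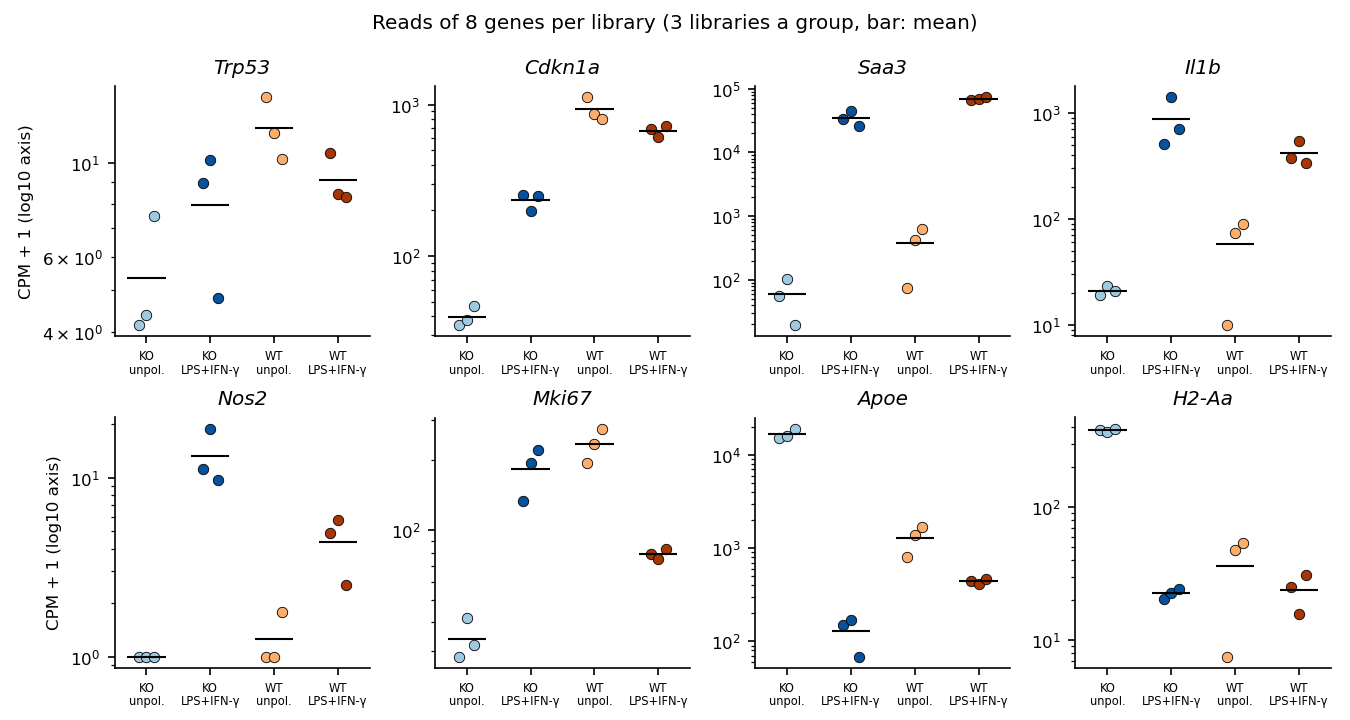
Reads of 8 genes in each library, as CPM plus 1 on a log10 axis. Circles are the 3 libraries of a group and bars their mean. Stimulated KO libraries lie above unpolarized ones for Saa3, Il1b, Nos2, Cdkn1a and Mki67, below them for Apoe and H2-Aa, and overlap with them for Trp53, while Mki67 falls with stimulation in WT cells.

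The cells carried macrophage markers in all 6 libraries, at a summed 33116 to 39524 CPM in unpolarized and 16395 to 25656 CPM in stimulated KO macrophages, so the groups did not overlap. Within the core macrophage list, 3 of 18 members rose, among them Adgre1, which encodes F4/80 (log2 fold change 1.49, SE 0.30, adjusted p = 0.000194), and 7 fell, among them the M-CSF receptor gene Csf1r, from 4947, 6812 and 8054 to 1512, 1332 and 1663 CPM (log2 fold change -2.14, SE 0.30, adjusted p = 2.52e-06), and Cebpa, a myeloid transcription factor gene (log2 fold change -2.81, SE 0.38, adjusted p = 1.40e-06). The shares of the core list were 16.7% higher and 38.9% lower, against 22.8% and 21.8% of all genes tested. Markers of neutrophils summed to between 669 and 821 CPM in unpolarized and between 1602 and 2809 CPM in stimulated KO macrophages. Of 9 tested 4 rose and none fell. Ly6g, a defining marker, was at 0 in the unpolarized libraries, but all 12 listed neutrophil markers had reads in the stimulated ones. Their part in the results was not tested, nor was that of B cell markers (1 of 3 tested fell, none rose, and Cd79a, Igkc and Ms4a1 were at 0 in all 6 libraries), which summed to 25.7 to 32.0 CPM before and 7.3 to 10.5 CPM after stimulation. Markers of T and NK cells reached at most 2.23 CPM in any of the 6 libraries, those of dendritic cells 4.98 CPM and those of mast cells, basophils and eosinophils 4.93 CPM. Markers of fibroblasts and endothelium summed to between 189 and 321 CPM before and between 135 and 190.4 CPM after stimulation, against 36.6 to 56.8 CPM in unpolarized WT macrophages. Of 8 of them tested 3 rose and 2 fell (1 to 2 when single libraries were left out). Cdh5, a defining marker, was at 0 in the unpolarized KO libraries, but all 10 listed had reads in the stimulated ones. Markers of erythroid cells and megakaryocytes summed to between 9.96 and 19.1 CPM before and reached 43.8 CPM in 1 stimulated library, and the 1 tested was not called. The part of these cells in the results was not tested. In bulk RNA, fewer cells of a type and less RNA per cell cannot be told apart.

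Between the KO groups, 5244 genes were called, 2681 higher and 2563 lower after stimulation. Of these, 785 were higher and 542 lower by a log2 fold change of at least 2. At an unadjusted p under 0.05 there were 6090. In WT macrophages 1825 genes were called, 943 higher and 882 lower. The rises called in both genotypes numbered 561, which was 20.9% of those in KO and 59.5% of those in WT macrophages, and 394 falls were shared, 15.4% and 44.7%. Of the KO rises 129 were called lower in WT macrophages, and 49 of the KO falls were called higher there. These 2 comparisons share no library.

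The 12 largest rises were taken among called genes with no overlap and a mean of at least 20 CPM over the 6 KO libraries. They were led by Il1a, which encodes the alarmin IL-1α. It had 0 reads in unpolarized and 61.5, 122 and 102 CPM in stimulated KO macrophages, at least 345-fold higher (adjusted p = 1.25e-06). Saa3, Ccl2, Ccl7 and Il12b, described with their groups, were also among them. Slc13a3, which encodes a carrier of dicarboxylates, rose from 4.72, 8.93 and 4.33 to 2491, 803 and 1349.7 CPM (log2 fold change 8.02, SE 1.19, adjusted p = 8.34e-06). In WT macrophages Slc13a3 had 665, 291 and 367 CPM before and 626, 706 and 749.7 CPM after stimulation (difference in response 7.37 (SE 1.39, adjusted p = 0.000503)). Among these groups the unpolarized KO libraries were set apart. Low levels also occurred in vehicle macrophages polarized with IL-4 and IL-13, at 24.1, 21.4 and 210 CPM in KO and 216, 18.1 and 14.6 CPM in WT. U90926 rose from 0.524, 0.923 and 0.541 to 316, 319 and 185 CPM (log2 fold change 8.64, SE 0.63, adjusted p = 3.95e-10). In WT macrophages it went from 0 reads to 958, 1219 and 961 CPM, and its response was called smaller in KO (edgeR adjusted p = 0.0375). Cd55, which encodes an inhibitor of complement, had 1 read in unpolarized libraries and 51.4, 21.5 and 50.2 CPM in stimulated ones, a ratio of 443-fold (95% counting interval 79.2 to 17540.0). WT macrophages carried 53.4, 25.8 and 23.5 CPM of Cd55 before and 23.8, 20.9 and 24.9 CPM after stimulation, so the stimulated KO libraries overlapped with the unpolarized WT ones (difference in response 8.91 (SE 1.91, adjusted p = 0.00161)). Klra2, a Ly49-family lectin receptor gene, had 2 reads against 43.7, 48.4 and 42.4 CPM, a ratio of 241-fold (95% counting interval 66.3 to 1993). The stefin genes Stfa3 (2 reads against 48.3, 45.6 and 62.0 CPM) and 2010005H15Rik (0 against 29.1, 57.5 and 55.1 CPM) are members of 1 cluster of close copies, between which reads may be split. The long non-coding RNA gene Gm14275 had 0 reads before and 68.1, 28.6 and 62.9 CPM after stimulation. Since no overlap was part of their choice, the 3 stimulated libraries lay above the 3 unpolarized ones for all 12. Among all 11779 genes tested, 2961 were higher and 3132 lower after stimulation without overlap. In WT macrophages 6 of the 12 were called higher and none lower. In the unpolarized state 8 of the 12 were called lower in KO than in WT macrophages, against 16.8% of all genes tested. The response was called larger in KO for 6 and smaller for 1, against 11.2% and 9.51% of all genes tested. Both comparisons use KO libraries by which the 12 were chosen. The choice favours such calls, so these counts are descriptions.

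The 12 largest falls were led by Hpgd, the dehydrogenase gene that inactivates prostaglandins, which had 56.9, 29.6 and 66.3 CPM in unpolarized and 0 in stimulated KO macrophages, at least 209-fold lower (adjusted p = 0.000103). Apoe, which encodes the lipid carrier apolipoprotein E (ENSMUSG00000002985, GRCm38 chr7:19696109-19699188, minus strand), fell from 15350.4, 16019 and 19075 to 149, 167 and 67.8 CPM (log2 fold change -7.04, SE 1.02, adjusted p = 6.56e-06). The log2 fold change was -7.27 for Sulf2, an endosulfatase gene, -5.89 for the transferrin gene Trf and -5.57 for Plxdc2, a plexin-domain receptor gene. Trf had 523, 629 and 529 CPM in unpolarized KO against 16.4, 31.5 and 31.7 CPM in unpolarized WT macrophages (difference in response -4.32 (SE 1.12, adjusted p = 0.00775)), and Plxdc2 81.0, 65.6 and 81.4 against 0.224, 5.97 and 4.86 CPM. Gas6, the ligand of the receptors MerTK and Axl, had 228, 175 and 80.1 CPM before and 3.02, 13.2 and 5.36 CPM after (log2 fold change -4.48, SE 0.67, adjusted p = 9.03e-06). The lysophosphatidylserine receptor gene Gpr34 had a log2 fold change of -4.57 and Entpd1, which encodes the ectonucleotidase CD39, of -4.40. Gm1673 (-4.43), the 7SK RNA gene Rn7sk (-4.92), the small non-coding RNA gene Gm26315 (0 reads after stimulation, at least 193-fold lower) and the ribosomal protein gene Rpl10 (-4.38) completed the group. Rn7sk has copies in the genome and Rpl10 processed pseudogenes, so their reads may be split. In unpolarized KO macrophages Rn7sk had 1116, 1296 and 1455 CPM and Gm26315 48.2, 27.7 and 65.7 CPM, against 10.3, 15.1 and 22.7 and 0.673, 0 and 4.60 CPM in unpolarized WT macrophages, where Hpgd had 0.449, 1.43 and 1.02 CPM. In the unpolarized state 10 of the 12 genes were called higher in KO than in WT macrophages, against 16.4% of all genes tested. In WT macrophages 0 of the 12 were called after stimulation by edgeR (2 at an unadjusted p under 0.05 and 2 by DESeq2). The response was called lower in KO for 8, against 9.51% of all genes tested. The comparisons of unpolarized KO with WT macrophages share the unpolarized KO libraries with those between the KO groups. The difference in response contains the KO comparison by which the 12 were chosen. The choice favours such calls, so the counts of both are descriptions.

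Chemokines, the ligands that recruit leukocytes, rose together: of 22 tested, 14 rose and 2 fell, with a median log2 fold change of 4.57 (4.46 with genes of 0 reads at their bound). Cxcl10, a ligand of CXCR3 on T cells, and Cxcl2, a ligand of CXCR2 on neutrophils, are 2 whose promoters carry matches to the sites of the pathways above, and Saa3 is one of the polarization markers. Their promoters, 250 bases before to 50 after the start, are given from RefSeq (GRCm38.p6), read in the direction of transcription, with matches to an ISRE (GAAANNGAA) and to an NF-kB site (GGNNTTTCC), on either strand, in capitals.
Cxcl10 (chr5:92348840-92349139, minus strand): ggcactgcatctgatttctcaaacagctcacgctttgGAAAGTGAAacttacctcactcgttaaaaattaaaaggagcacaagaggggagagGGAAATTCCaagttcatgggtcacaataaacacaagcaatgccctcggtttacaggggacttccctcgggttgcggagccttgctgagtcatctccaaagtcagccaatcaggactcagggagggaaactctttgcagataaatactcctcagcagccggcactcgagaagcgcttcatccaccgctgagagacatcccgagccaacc
Cxcl2 (chr5:90903649-90903948, plus strand): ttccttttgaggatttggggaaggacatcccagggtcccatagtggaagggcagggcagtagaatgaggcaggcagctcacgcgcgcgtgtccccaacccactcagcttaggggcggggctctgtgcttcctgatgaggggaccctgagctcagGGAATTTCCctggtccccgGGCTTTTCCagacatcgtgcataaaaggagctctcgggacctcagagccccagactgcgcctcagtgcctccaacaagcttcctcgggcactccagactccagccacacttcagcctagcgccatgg
Saa3 (chr7:46715627-46715926, minus strand): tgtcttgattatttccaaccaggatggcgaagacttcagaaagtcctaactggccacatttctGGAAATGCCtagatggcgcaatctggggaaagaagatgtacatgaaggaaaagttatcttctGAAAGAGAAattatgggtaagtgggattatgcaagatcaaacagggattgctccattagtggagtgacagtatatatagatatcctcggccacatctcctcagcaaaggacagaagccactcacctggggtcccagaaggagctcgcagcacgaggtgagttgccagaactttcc
Cxcl10 and Saa3 had 1 match to each motif, and Cxcl2 had 2 to the NF-kB letters. Matches of the motifs may share bases. Among chemokine promoters 6 of 14 (42.9%) held the NF-kB letters, against 6.34% of the promoters of all genes tested and 5.82% of all promoters in the table. The share was 7.07% for genes called higher and 6.22% for genes called lower.

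Cxcl10 was read at 3.14, 2.77 and 2.16 CPM in unpolarized and at 93.4, 283 and 164 CPM in stimulated KO macrophages (log2 fold change 6.05, SE 0.85, adjusted p = 3.98e-06). All 3 stimulated libraries were far above the unpolarized ones, while in WT macrophages Cxcl10 was not called (9.20, 38.5 and 24.8 against 17.6, 32.6 and 16.9 CPM, log2 fold change -0.11, SE 0.67, adjusted p = 0.941). The difference between the genotypes' responses was 6.15 (SE 1.08, adjusted p = 0.000223) on the log2 scale. Cxcl2 rose from 16.0, 14.5 and 10.8 to 152, 586 and 232 CPM in KO macrophages (log2 fold change 4.55, SE 0.65, adjusted p = 5.27e-06), and had 48.7, 219 and 139.8 against 60.2, 73.4 and 31.7 CPM in WT macrophages (log2 fold change -1.30, adjusted p = 0.124). In Cxcl2 the unpolarized KO libraries lay below all unpolarized WT libraries, and the stimulated KO libraries above all stimulated WT libraries.

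Attractants of monocytes rose too. Ccl2, the main ligand of CCR2, had 4.19, 7.39 and 0.541 CPM in unpolarized and 834, 873 and 851 CPM in stimulated KO macrophages (log2 fold change 7.74, SE 1.40, adjusted p = 9.25e-05), and its neighbours Ccl7 and Ccl12 rose by 7.52 and 7.28. Ccl5, an attractant of T cells and monocytes, rose from 20.2, 24.9 and 12.7 to 3267, 939 and 1795 CPM (log2 fold change 6.70, SE 0.81, adjusted p = 5.79e-07), and the macrophage inflammatory protein genes Ccl3 and Ccl4 by 4.83 and 4.69. The neutrophil attractant Cxcl1 rose by 6.36. The 2 ligands that fell were Ccl24, an eosinophil attractant (-3.24), and Cxcl12, the ligand of CXCR4 (-2.82). Ccl24 was no longer called without unpolarized replicate 2 (adjusted p = 0.0963) or without stimulated replicate 1 (0.0756) or 3 (0.106). In WT macrophages 5 chemokines rose and none fell by edgeR (1 at an unadjusted p under 0.05 and 0 by DESeq2; median 0.37), and the difference between responses was called for 9, in each with the larger response in KO macrophages, where 20.7% of all genes were called, 11.2% higher and 9.51% lower.

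Among chemoattractant receptors 6 of 12 rose and 3 fell. The formyl peptide receptor genes Fpr1 and Fpr2, which sense bacterial peptides, rose by 7.31 and 6.07; Fpr1 had 2.36, 3.08 and 2.16 CPM before and 405, 406 and 405 CPM after. Ccr2 and Cx3cr1, the receptors that mark monocyte subsets, fell, with log2 fold changes of -2.86 and -2.45, and so did Cxcr4 (-3.41).

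**Figure D2:**
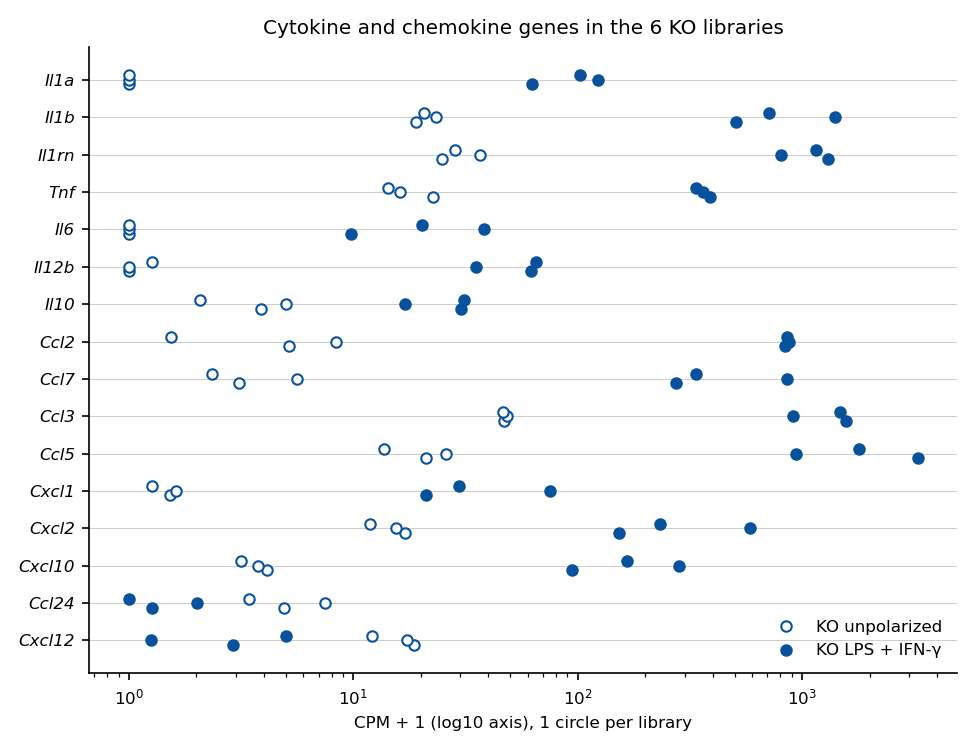
CPM plus 1, on a log10 axis, of 16 cytokine and chemokine genes in the 6 KO libraries. Open circles are unpolarized and filled circles stimulated libraries. The 14 genes that rose have all stimulated libraries to the right of all unpolarized ones, and Ccl24 and Cxcl12, which fell, the reverse.

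Cytokine genes of the TNF, IL-6, IL-12 and IL-10 families rose in most cases. Of 12 cytokine genes tested, of 18 listed, 9 rose and 1 fell. Tnf had 21.7, 15.1 and 13.3 CPM in unpolarized and 387, 360.5 and 334 CPM in stimulated KO macrophages (log2 fold change 4.43, SE 0.45, adjusted p = 3.74e-08), and 187, 238 and 236 against 342, 440.3 and 272 CPM in WT macrophages, where it was not called (log2 fold change 0.67, adjusted p = 0.251, and 0.0122 when only the groups compared were fitted). The difference in response was 3.75 (SE 0.57, adjusted p = 3.93e-05). Il6 had 0 reads in unpolarized libraries and 8.79, 37.2 and 19.2 CPM in stimulated ones, at least 78.8-fold higher (adjusted p = 8.59e-06). Il12b, which encodes the p40 subunit of IL-12 and IL-23, had 1 read before stimulation and 61.0, 34.2 and 64.3 CPM after, a ratio of 575-fold (95% counting interval 103 to 22750.0). Il10, which restrains macrophages, also rose (2.88, 4.00 and 1.08 against 29.1, 15.9 and 30.1 CPM, log2 fold change 3.24, SE 0.67, adjusted p = 0.00031). Tgfb1 was the member that fell (log2 fold change -0.51, SE 0.18, adjusted p = 0.023), a call lost without unpolarized replicate 2 (adjusted p = 0.0706) or 3 (0.0929) and without stimulated replicate 1 (0.0640) or 2 (0.0790). All 3 stimulated libraries lay above all 3 unpolarized ones for Tnf, Il6, Il12b and Il10.

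In the IL-1 family and its inflammasome 10 of 17 rose and none fell. In this and each of the other lists described here with no fall, or no rise, in KO macrophages by edgeR, none did so at an unadjusted p under 0.05 or by DESeq2 either, and the same holds wherever none is written of another comparison without further counts. Beside the ligands Il1a and Il1b, the receptor antagonist gene Il1rn rose from 23.8, 35.7 and 27.3 to 1298, 803 and 1149 CPM (log2 fold change 5.23, SE 0.82, adjusted p = 1.64e-05). The caspase genes Casp1 and Casp4 rose by 1.20 and 1.73. The pore-forming effector gene Gsdmd was not called (log2 fold change 0.29, SE 0.20, adjusted p = 0.226).

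Acute-phase and antiprotease genes were the group with the largest median, 5.61 (4.50 with bounds), with 9 of 11 higher and none lower among those tested. Lcn2, which encodes a binder of bacterial siderophores, rose from 16.0, 23.4 and 16.2 to 826, 1133 and 746 CPM (log2 fold change 5.61, SE 0.78, adjusted p = 3.84e-06). Slpi, a leukocyte protease inhibitor gene, rose by 6.90, the PAI-2 gene Serpinb2 by 6.71, the haptoglobin gene Hp by 4.39 and the ceruloplasmin gene Cp by 4.23. The group rose in WT macrophages as well, with 7 called higher and a median of 4.10, and 0 of its members differed between the genotypes' responses by edgeR (1 at an unadjusted p under 0.05 and 0 by DESeq2).

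Nitric oxide synthesis and its supply of arginine and cofactor rose with Nos2, as 9 of 12 members were higher and 1 lower. Ass1, which encodes the argininosuccinate synthase that rebuilds arginine from citrulline, rose from 3.41, 4.00 and 2.43 to 61.5, 58.7 and 60.3 CPM (log2 fold change 4.19, SE 0.36, adjusted p = 7.16e-10). Gch1, the first enzyme of tetrahydrobiopterin synthesis, rose by 3.10, and the arginine carrier gene Slc7a2 by 2.57. Arg1, the arginase that competes with Nos2 for arginine and is best known from IL-4 polarization, had 2.88, 1.23 and 0.271 CPM before and 141, 90.1 and 40.6 CPM after (log2 fold change 5.90, SE 0.72, adjusted p = 6.55e-07), with no overlap. The member that fell was Asl (log2 fold change -0.82, SE 0.27, adjusted p = 0.0139), the argininosuccinate lyase gene that acts after Ass1, and it was not called without unpolarized replicate 1 (adjusted p = 0.0667) or stimulated replicate 1 (0.0677) or 2 (0.0542).

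Acod1, which makes itaconate from the TCA cycle intermediate aconitate, rose from 8.39, 5.54 and 7.03 to 680.4, 1171 and 625 CPM (log2 fold change 6.87, SE 0.72, adjusted p = 9.88e-08). With the glycolysis and hypoxia genes listed beside it, 19 of 24 rose and 1 fell (median 1.54). The glucose carrier gene Slc2a1 rose from 23.3, 15.4 and 15.4 to 102, 122 and 77.2 CPM (log2 fold change 2.47, SE 0.24, adjusted p = 3.02e-09), Pfkfb3, an activator of glycolysis, by 2.86, and the lactate dehydrogenase and lactate carrier genes Ldha and Slc16a3 by 2.06 and 2.26. The member that fell was the angiogenic ligand gene Vegfa (log2 fold change -1.38, SE 0.48, adjusted p = 0.0203), which was not called without unpolarized replicate 2 (adjusted p = 0.0699) or stimulated replicate 2 (0.0754) or 3 (0.0838). In WT macrophages 16 rose and none fell. Among nuclear genes of the TCA cycle and oxidative phosphorylation 12 of 40 rose (30.0%) and 4 fell (10.0%), with a median of 0.23. Over all genes tested 22.8% rose and 21.8% fell. When single libraries were left out, 2 to 3 of this list fell. Among the falls was Idh1, a cytosolic isocitrate dehydrogenase gene (-2.06).

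Prostaglandin genes moved in both directions, 5 up and 5 down of 14. Ptgs2, the inducible cyclooxygenase COX-2, rose from 2.10, 2.46 and 1.08 to 31.6, 152 and 54.7 CPM (log2 fold change 5.39, SE 0.82, adjusted p = 1.01e-05), and the prostaglandin E synthase gene Ptges by 5.93. Ptgs1, the constitutive cyclooxygenase, fell from 82.5, 94.5 and 107 to 1.92, 16.5 and 9.82 CPM (log2 fold change -3.31, SE 0.55, adjusted p = 3.06e-05), and Tbxas1, the thromboxane synthase gene, and Ltc4s, the leukotriene C4 synthase gene, had log2 fold changes of -1.95 and -4.39. Hpgd, which breaks prostaglandins down, fell as given above.

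Tlr4, the receptor of LPS, was not called (log2 fold change -0.40, SE 0.24, adjusted p = 0.189). Of 20 genes of the LPS receptor and its adaptors 3 rose and 5 fell (3 to 6 and 3 to 5 when single libraries were left out). Ifngr1, the ligand-binding chain of the IFN-γ receptor, fell from 260.2, 294 and 362 to 75.0, 83.8 and 52.2 CPM (log2 fold change -2.12, SE 0.26, adjusted p = 2.00e-07). Of the 7 interferon receptor and kinase genes 5 fell, and Jak2 rose (log2 fold change 1.19, SE 0.21, adjusted p = 3.07e-05). In WT macrophages none of the 7 fell and 2 rose, and for 6 the response was lower in KO macrophages.

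Of 33 transcription factor genes, 12 rose and 5 fell. Irf7, which amplifies type I interferon, rose from 32.2, 51.1 and 41.4 to 965, 449 and 635 CPM (log2 fold change 4.04, SE 0.72, adjusted p = 7.44e-05), the AP-1 family gene Batf by 4.30 and Stat4 by 2.63. Irf1, an early IFN-γ target, was not called after 24 h, at 66.6, 74.5 and 85.5 against 69.5, 81.3 and 65.6 CPM (log2 fold change -0.07, SE 0.26, adjusted p = 0.86). Maf, a regulator of macrophage differentiation, fell, with a log2 fold change of -1.22. Irf8, a lineage factor of monocytes, fell in KO macrophages (log2 fold change -0.77, SE 0.15, adjusted p = 0.000102) and had a log2 fold change of 0.62 in WT macrophages, a difference of -1.39 (SE 0.21, adjusted p = 2.09e-05).

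Feedback inhibitors rose in number, 16 of 24 with none lower (1 without stimulated replicate 2) and a median of 1.47. Socs3, a brake on STAT3 signalling, rose from 9.96, 7.70 and 6.76 to 90.4, 259 and 122 CPM (log2 fold change 4.26, SE 0.58, adjusted p = 2.70e-06), Socs1 by 3.80, and Usp18, which removes ISG15 and dampens the interferon receptor, by 4.28. On the NF-kB side Nfkbia, which encodes IκBα, rose from 558, 560.2 and 531 to 1703, 1894 and 1329 CPM (log2 fold change 1.58, SE 0.24, adjusted p = 5.99e-06), Tnfaip3, which encodes A20, by 2.29, and Nfkbiz, a nuclear IκB gene, by 3.46. In WT macrophages Nfkbia and Tnfaip3 had log2 fold changes of -0.30 and -0.41, and Nfkbiz of -1.22. The response differed for 15 of the 24 with more in KO and for 1 with less. In the unpolarized state 15 were lower and 2 higher in KO than in WT macrophages, and after stimulation 5 were higher and none lower. Among all genes the unpolarized KO and WT libraries differed in 16.4% higher and 16.8% lower, and the stimulated ones in 5.93% higher and 5.71% lower in KO.

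Interferon-stimulated genes rose in nearly the whole list, 36 of 43 tested, with none lower and a median of 2.08. The promoter of Isg15, which encodes the ubiquitin-like modifier ISG15, is shown for its ISREs (RefSeq, GRCm38.p6, 250 bases before to 50 after the start, ISRE matches in capitals).
Isg15 (chr4:156200769-156201068, minus strand): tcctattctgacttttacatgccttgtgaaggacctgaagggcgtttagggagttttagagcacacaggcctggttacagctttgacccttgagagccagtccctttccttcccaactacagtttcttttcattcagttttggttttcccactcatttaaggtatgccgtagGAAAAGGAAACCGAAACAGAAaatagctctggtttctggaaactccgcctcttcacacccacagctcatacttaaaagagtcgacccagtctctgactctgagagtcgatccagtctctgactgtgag
The Isg15 promoter had 3 matches, which overlap, and 1 match to the NF-kB letters that is not marked. The ISRE letters stood in 21 of 40 promoters of the type I interferon list (52.5%), against 7.41% of the promoters of all genes tested and 8.56% of all promoters in the table. The share was 9.56% for genes called higher and 6.96% for those called lower.

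Isg15 was read at 27.3, 21.5 and 14.6 CPM in unpolarized and at 191, 269 and 213 CPM in stimulated KO macrophages (log2 fold change 3.40, SE 0.68, adjusted p = 0.000287). Rsad2, which encodes the antiviral enzyme viperin, rose by 3.78, Ifit1, a sensor of foreign RNA caps, by 3.17, and the nucleic acid sensor gene Zbp1 by 3.45. The schlafen gene Slfn1 had 1.05, 0.616 and 0.541 CPM before and 85.7, 26.8 and 39.1 CPM after (log2 fold change 6.02, SE 0.86, adjusted p = 3.62e-06). Ddx58, which encodes the RNA sensor RIG-I, and Ifih1, which encodes MDA5, rose by 1.58 and 1.13. In WT macrophages 29 of the list rose (median 1.67), and the response differed for 4, in each with more in KO.

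The IFN-γ-inducible GTPases, which attack the vacuoles of intracellular pathogens, rose in both genotypes: 12 of 18 rose in KO and 10 in WT macrophages, with medians of 1.58 and 1.53 and none lower in either. Gbp2 had 12.3, 16.6 and 9.20 CPM in unpolarized and 71.7, 63.8 and 65.2 CPM in stimulated KO macrophages (log2 fold change 2.40, SE 0.52, adjusted p = 0.000605), with no overlap. Gbp4 rose by 4.36, Gbp5 by 2.27 and the immunity-related GTPase gene Igtp by 1.45. These genes lie in clusters of close copies, so reads may be split among them. Of the 11 promoters found for the group 9 (81.8%) held the ISRE letters and 5 (45.5%) the GAS letters TTCNNNGAA, against 7.41% and 6.77% for all genes tested and 8.56% and 8.30% for all promoters.

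Antigen presentation split by class. Of 21 MHC class I and immunoproteasome genes 15 rose and none fell, while of 14 MHC class II genes and regulators 1 rose (1 to 2 when single libraries were left out) and 6 fell. H2-K1, a classical class I heavy chain gene, had 582, 542 and 489 CPM before and 1849, 1339 and 1239.9 CPM after (log2 fold change 1.46, SE 0.18, adjusted p = 2.03e-07), its partner B2m rose by 1.10, and Tap1, a peptide transporter gene, by 1.71. The immunoproteasome subunit genes Psmb8 and Psmb9 rose by 1.37 and 1.30. Class I genes are close copies of one another, so counts of single members are uncertain.

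H2-Aa, the class II α chain, was read at 380.2, 369.7 and 389 CPM in unpolarized and at 19.5, 21.8 and 23.2 CPM in stimulated KO macrophages (log2 fold change -4.14, SE 0.81, adjusted p = 0.000212). H2-Eb1 and H2-Ab1 had log2 fold changes of -4.11 and -3.53. Cd74, the invariant chain that guards the class II groove, fell from 334, 420.5 and 467 to 25.8, 22.3 and 35.9 CPM (log2 fold change -3.86, SE 0.69, adjusted p = 8.69e-05). Their transactivator gene Ciita was not called (log2 fold change -1.91, SE 0.90, adjusted p = 0.0845). In WT macrophages H2-Aa had 6.51, 46.4 and 52.7 CPM before and 24.1, 14.8 and 30.0 CPM after stimulation, so the KO fall set out from a higher unpolarized level. Between genotypes the unpolarized state differed for 8 of the 14, all higher in KO, and the response for 6, all lower in KO. B cells carry class II genes too, and their summed markers fell beside these genes as given above; their part was not tested.

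Costimulatory and checkpoint genes rose in 7 of 16 (43.8%) and fell in 3 (18.8%), the falls close to the 21.8% of all genes tested. Cd274, which encodes the checkpoint ligand PD-L1, rose from 11.8, 12.6 and 13.0 to 355, 173 and 220.3 CPM (log2 fold change 4.32, SE 0.37, adjusted p = 1.77e-09), Cd40 by 2.85 and the adhesion ligand gene Icam1 by 1.63. Vsir, which encodes the checkpoint molecule VISTA, fell in KO macrophages (log2 fold change -1.98, SE 0.26, adjusted p = 5.14e-07) and had a log2 fold change of 0.86 in WT macrophages, a difference of -2.85 (SE 0.36, adjusted p = 2.50e-06).

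Receptors of phagocytosis moved in both directions, with 7 of 19 higher and 8 lower. Marco, a scavenger receptor for bacteria, had 16.8, 17.5 and 14.3 CPM in unpolarized and 2840.2, 3136 and 2111 CPM in stimulated KO macrophages (log2 fold change 7.38, SE 0.84, adjusted p = 2.76e-07). WT macrophages carried 1171, 1963 and 2070.3 CPM of Marco before stimulation and 4923, 5469 and 5539 CPM after. Among these groups the unpolarized KO libraries were the lowest. A low level was not confined to them. Vehicle macrophages polarized with IL-4 and IL-13 had 85.4, 46.4 and 98.5 CPM in KO and 1089, 130 and 83.6 CPM in WT. The activating receptor genes Trem1 and Trem3 rose by 3.90 and 4.94, and the activating Fc receptor gene Fcgr4 by 2.31. Mertk, the receptor that engulfs apoptotic cells through Gas6, fell from 257, 309 and 337 to 26.9, 32.7 and 22.99 CPM (log2 fold change -3.45, SE 0.42, adjusted p = 5.00e-07), with Axl (-2.29), Stab1 (-2.73) and Trem2 (-2.36). Mrc1, the mannose receptor, fell in KO (log2 fold change -2.71, SE 0.38, adjusted p = 3.15e-06) and in WT macrophages (log2 fold change -2.84, SE 0.39, adjusted p = 1.45e-05).

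Among lipid handling genes Apoe was not alone, as 8 of 20 LXR targets and lipid genes fell and 2 rose. Apoe was 802, 1397 and 1689 CPM in unpolarized and 444, 416 and 468 CPM in stimulated WT macrophages, where it was not called (log2 fold change -1.55, SE 0.80, adjusted p = 0.21; adjusted p = 0.00815 when only the groups compared were fitted), and its response was lower in KO, with a difference of -5.49 (SE 1.19, adjusted p = 0.0018). Lpl, the lipoprotein lipase gene, fell in both genotypes, with log2 fold changes of -1.94 in KO and -2.31 in WT macrophages. The LXRα gene Nr1h3 itself rose (log2 fold change 2.39, SE 0.25, adjusted p = 1.05e-08). Of 22 genes of sterol synthesis and uptake none rose and 5 fell (22.7%, close to the 21.8% of all genes tested), among them Hmgcs1, the HMG-CoA synthase gene (log2 fold change -1.57, SE 0.39, adjusted p = 0.0019).

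Lysosome and autophagy genes fell more often than they rose, 16 against 7 of 34 (median -0.30). The share that rose, 20.6%, was close to the 22.8% of all genes tested. Tfeb, the master regulator of lysosome genes, fell from 25.4, 35.4 and 24.1 to 6.87, 5.57 and 4.69 CPM (log2 fold change -2.31, SE 0.37, adjusted p = 8.30e-06), and the acid lipase gene Lipa had a log2 fold change of -2.15. Ctsk, a cathepsin gene best known from osteoclasts, rose in KO macrophages (log2 fold change 4.56, SE 0.85, adjusted p = 0.000111) and had a log2 fold change of -2.52 in WT macrophages. In the unpolarized state 17 of these 34 genes were higher and 5 lower in KO than in WT macrophages. Over all genes tested 16.4% were higher and 16.8% lower there.

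Of 17 markers of alternative, IL-4-type activation 5 rose (29.4%) and 6 fell (35.3%), against 22.8% and 21.8% of all genes tested. Pparg, the lipid-sensing nuclear receptor gene, had a log2 fold change of -4.11, and the lectin gene Clec10a of -2.42, while Arg1 rose as given above. Under scaling by total counts 2 rose and 6 fell, and between 1 and 5 rose when single libraries were left out. Of 11 complement genes tested 3 rose (27.3%) and 4 fell (36.4%). The C1q genes C1qa, C1qb and C1qc fell, with log2 fold changes of -2.14, -1.86 and -1.50. The alternative pathway genes C3 and Cfb rose by 2.48 and 7.10.

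Stress and survival genes rose more often than they fell. Of 20 NRF2, heme and metallothionein genes 9 rose and 2 fell. Sod2, the mitochondrial superoxide dismutase gene, rose from 118, 115 and 101 to 1431, 1529 and 1476 CPM (log2 fold change 3.73, SE 0.38, adjusted p = 3.35e-08), the cystine carrier gene Slc7a11 by 4.09 and Hmox1, heme oxygenase, by 1.79. Slc40a1, which encodes the iron exporter ferroportin, fell from 285, 279 and 278 to 17.0, 9.62 and 26.8 CPM (log2 fold change -3.97, SE 0.73, adjusted p = 0.000114). Of 21 regulators of apoptosis and necroptosis 12 rose and 3 fell; the necroptosis effector genes Ripk3 and Mlkl rose by 2.01 and 2.55, and the BIM gene Bcl2l11 had a log2 fold change of -1.04. When single libraries were left out, 1 to 3 of the apoptosis list and 1 to 2 of the NRF2 list fell. Of 14 pattern receptor genes 2 rose, among them the mycobacterial glycolipid receptor gene Clec4e (3.35), and 3 fell, among them the β-glucan receptor gene Clec7a (-3.92); each count ran from 1 to 3 when single libraries were left out.

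Proliferation genes moved in opposite directions in the 2 genotypes. Of 50 cell cycle genes tested, 46 rose and none fell after LPS and IFN-γ in KO macrophages (median 2.49), while in WT macrophages none rose by edgeR (1 at an unadjusted p under 0.05 and 0 by DESeq2) and 17 fell (median -0.70). The response differed between genotypes for 48, all with more in KO. Mki67, which encodes the proliferation antigen Ki-67, stands for the group. Its promoter (RefSeq, GRCm38.p6, 250 bases before to 50 after the start) is shown with the CCAAT box and the CHR, written TTTGAA, in capitals, the paired elements known from late cell cycle genes and searched on both strands.
Mki67 (chr7:135716330-135716629, minus strand): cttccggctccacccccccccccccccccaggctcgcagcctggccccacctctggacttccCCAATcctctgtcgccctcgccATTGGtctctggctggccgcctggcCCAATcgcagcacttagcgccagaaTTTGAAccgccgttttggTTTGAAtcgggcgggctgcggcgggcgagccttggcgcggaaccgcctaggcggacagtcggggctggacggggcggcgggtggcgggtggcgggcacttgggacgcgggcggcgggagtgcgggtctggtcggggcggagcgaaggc
It had 3 matches to CCAAT and 2 to TTTGAA. Over the cell cycle list 33 of 43 promoters (76.7%) held CCAAT and 17 (39.5%) TTTGAA, against 37.8% and 12.4% for the promoters of all genes tested and 37.4% and 17.9% for all promoters in the table.

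Mki67 had 27.5, 40.6 and 31.1 CPM in unpolarized and 133, 195 and 220.0 CPM in stimulated KO macrophages (log2 fold change 2.47, SE 0.33, adjusted p = 1.05e-06), against 194, 234 and 272 and 77.8, 74.5 and 82.1 CPM in WT macrophages (log2 fold change -1.58, SE 0.31, adjusted p = 0.000804). The unpolarized KO libraries thus lay below all other groups, and the stimulated KO libraries lay above all stimulated WT libraries and overlapped with the unpolarized WT ones. The difference in response was 4.05 (SE 0.45, adjusted p = 1.09e-06). The topoisomerase gene Top2a rose from 51.1, 57.6 and 50.8 to 240.1, 534 and 415 CPM (log2 fold change 2.90, SE 0.40, adjusted p = 2.58e-06). Ccne1 and Ccne2, the cyclins that open S phase, rose by 4.83 and 4.55, and the ribonucleotide reductase gene Rrm2 by 3.77. The replication helicase genes Mcm2, Mcm5 and Mcm7 rose by 2.17, 2.65 and 2.75, and the mitotic kinase genes Aurka, Aurkb and Plk1 by 3.31, 2.51 and 2.30. The members that were not called were Cenpa, Cdk6, Ccnd1 and Cdk2. In unpolarized cells 47 of the 50 were lower and none higher in KO than in WT macrophages (median -2.65), and in stimulated cells 8 were higher and 1 lower (median 0.63). The number of rises stayed between 45 and 47 when single libraries were left out.

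**Figure D3:**
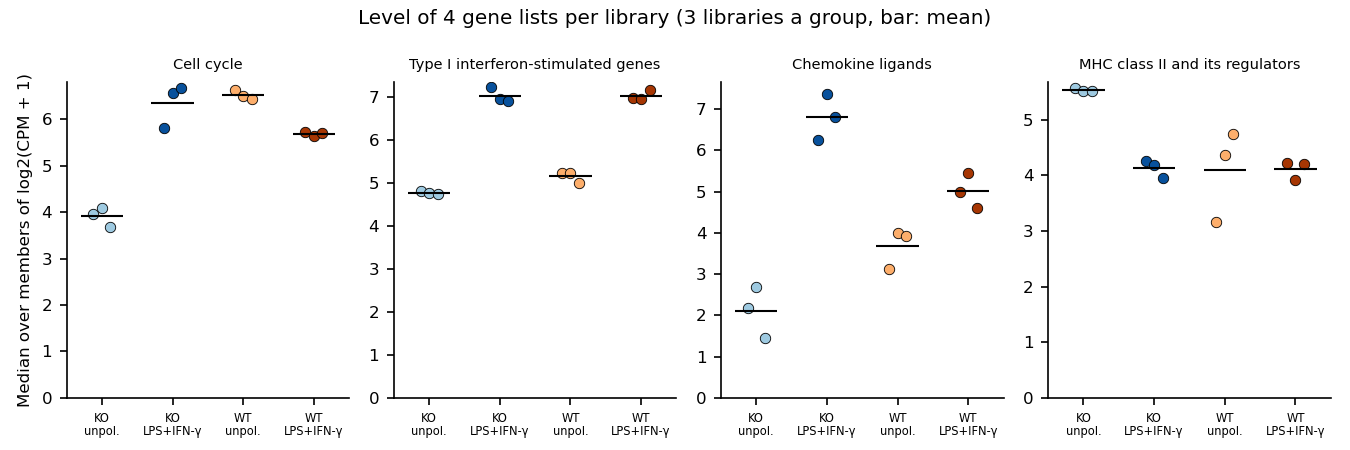
Median over the members of 4 gene lists of log2(CPM + 1) in each library of the 4 vehicle groups. Circles are libraries and bars their mean. Cell cycle genes are lowest in unpolarized KO macrophages and MHC class II genes highest there, whereas type I interferon-stimulated genes are higher after stimulation in both genotypes.

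Across the 30 lists, the share of members that rose was largest for cell cycle genes and interferon-stimulated genes in KO macrophages, at 46 of 50 and 36 of 43. The shares of pattern receptor genes, 14.3% higher and 21.4% lower, were below those of all genes tested, and those of the LPS receptor and its adaptors, 3 and 5 of 20, were below and close to them.

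**Figure D4:**
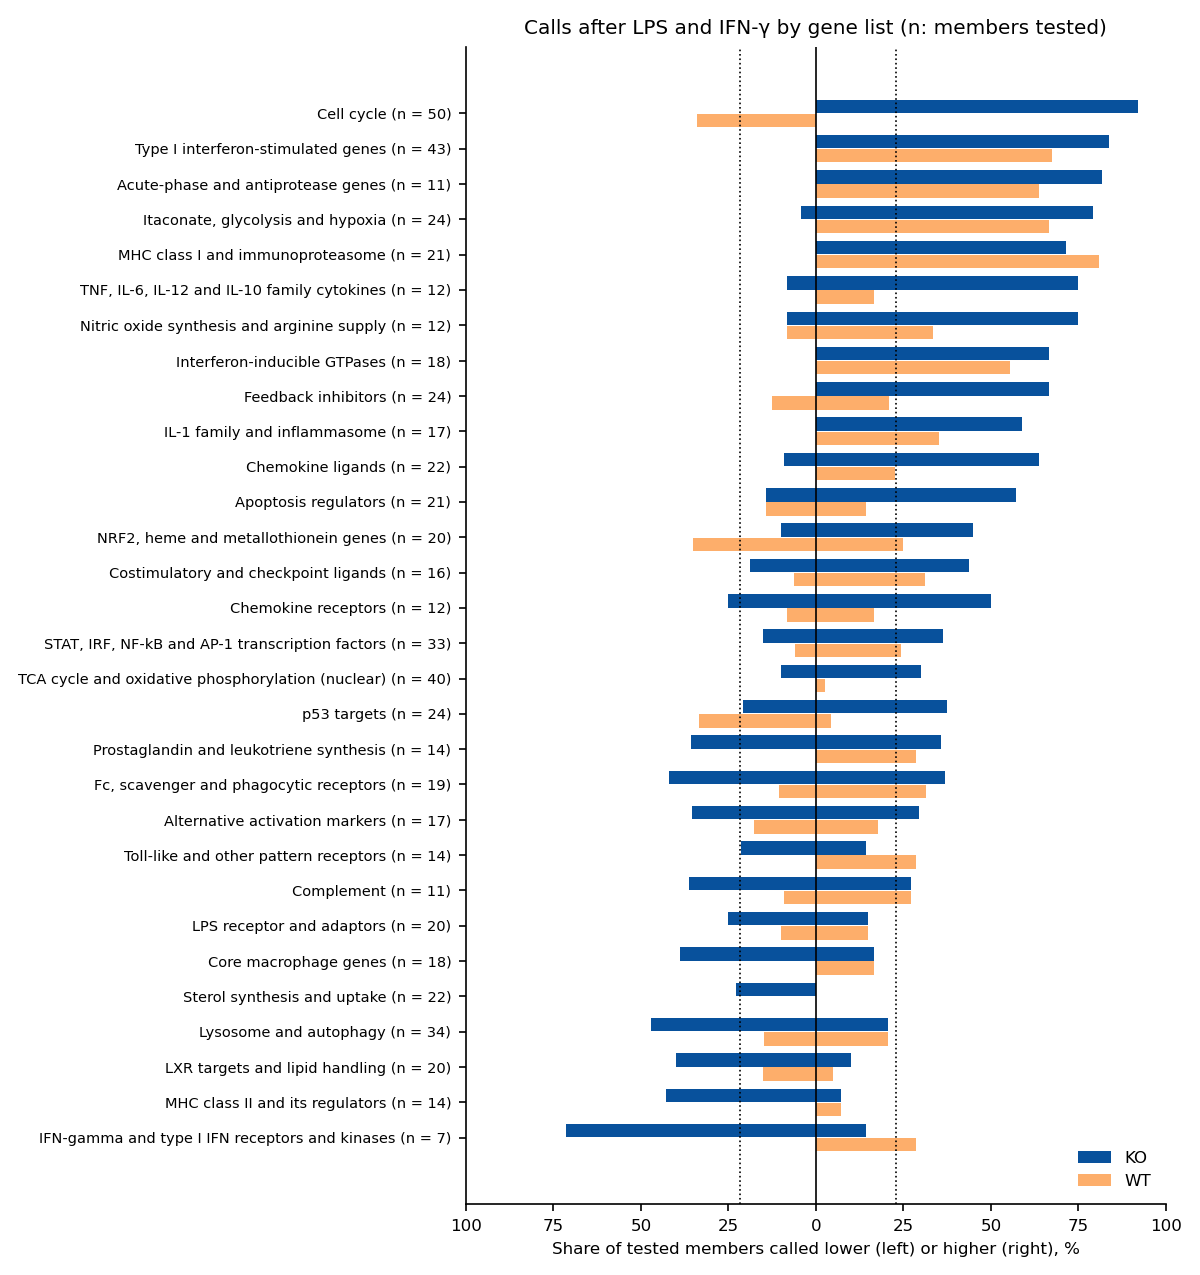
Share of the tested members of each of 30 gene lists called higher (to the right) or lower (to the left) after LPS and IFN-γ, in percent, for KO (dark) and WT (light) macrophages. Dotted lines give the same shares over all genes tested in KO macrophages, 22.8% and 21.8%. The lists overlap in a few genes, and no test was made of a list.

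Over all genes, the response to LPS and IFN-γ differed between KO and WT macrophages for 2442, with 1322 higher and 1120 lower in KO. Under scaling by total counts 2559 were called, of which 76.4% were higher instead of 54.1%, and the median difference of all genes moved from -0.01 to 0.23. Across genes the log2 fold changes of the 2 genotypes had a Pearson correlation of 0.377 (Spearman 0.309), and of 0.486 over the 5865 genes with a mean of at least 20 CPM, as a description, since genes are not independent replicates.

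**Figure D5:**
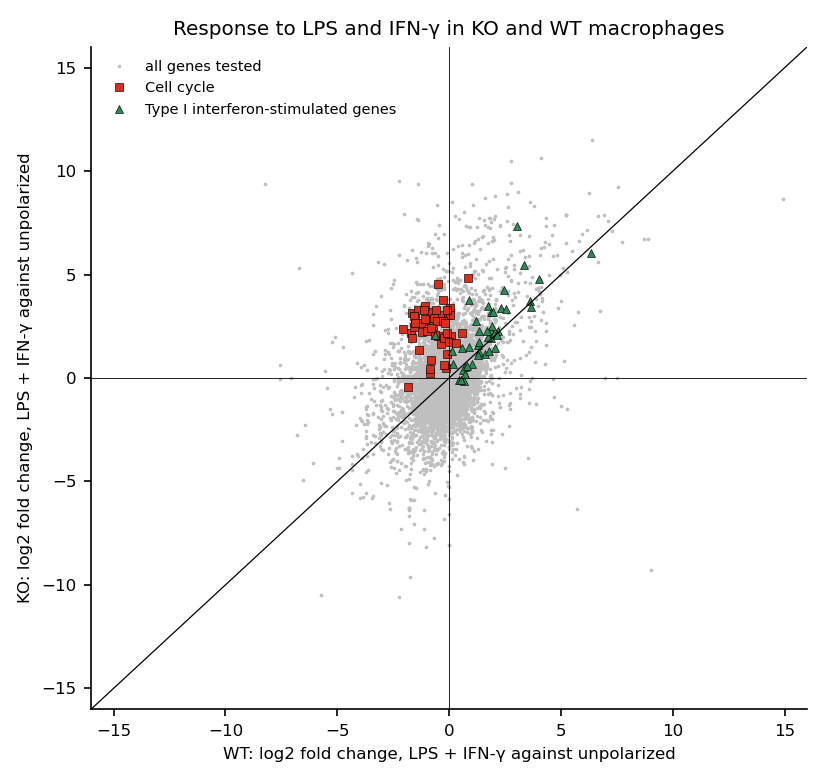
Log2 fold change after LPS and IFN-γ in KO (vertical) against WT macrophages (horizontal) for the 11779 genes tested. Cell cycle genes (squares) are above 0 in KO for all but Cenpa and mostly below 0 in WT, and type I interferon-stimulated genes (triangles) are mostly above 0 in both. The line marks equal values.

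Genes were ranked by p among called differences with a mean of at least 20 CPM over the 12 libraries of the 4 groups. Those with the lowest p for a higher response in KO were Gdf15, Cenpe, Flrt2, Spn and Smc4. Gdf15, a stress cytokine gene and p53 target, had 7.60, 12.0 and 7.03 CPM in unpolarized and 121, 77.2 and 112 CPM in stimulated KO macrophages (log2 fold change 3.55, SE 0.33, adjusted p = 3.70e-09). In WT macrophages it went the other way, from 74.0, 42.3 and 39.4 to 14.6, 11.1 and 13.3 CPM (log2 fold change -2.00, SE 0.32, adjusted p = 5.96e-05). Spn, which encodes the sialophorin CD43, rose in KO by 3.87 and had a WT log2 fold change of -0.99. Cenpe and Smc4 belong to mitosis, as a kinetochore motor and a condensin subunit, and had log2 fold changes of 3.01 and 1.12 in KO against -1.56 and -1.55 in WT macrophages. Flrt2, an adhesion protein gene, had log2 fold changes of 1.92 in KO against -0.88 in WT macrophages.

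For a lower response in KO, that is a negative difference KO minus WT, those with the lowest p were Fscn1, Lfng, Tpcn1, Tm6sf1 and Vsir. Fscn1, the actin-bundling fascin, was not called in KO (31.2, 30.8 and 27.0 against 29.4, 24.0 and 31.9 CPM, log2 fold change -0.06, SE 0.30, adjusted p = 0.892) and rose in WT macrophages from 2.02, 1.19 and 2.04 to 34.6, 38.7 and 61.2 CPM (log2 fold change 4.65, SE 0.39, adjusted p = 1.25e-09). Lfng, a glycosyltransferase gene that tunes Notch receptors, had log2 fold changes of -2.08 in KO and 0.98 in WT macrophages. Tpcn1, an endolysosomal channel gene, and Tm6sf1 had -2.24 and -1.23 in KO against -0.29 and 0.62 in WT macrophages.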

How the data were processed

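RNA of bone marrow-derived macrophages was measured by 3′ mRNA sequencing (QuantSeq FWD, 100 ng RNA, single reads of 75 bases, per the labels' protocols). The deposited table holds the authors' raw counts of reads per gene and library. The submitters' processing notes name Bowtie2, RSEM and DESeq2 without roles, and build and strand setting were not given in the sources used here, nor were molecular identifiers, so overlapping or antisense genes may share reads and intervals cover counting error only. Symbols and coordinates came from GENCODE M21 (GRCm38) by gene ID, and promoters from RefSeq, found for 8915 of the 11774 symbols tested.

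Counts of the 36 bone marrow-derived libraries, 12 groups of 3, were fitted together in edgeR 4.0.16 (R 4.3.3; quasi-likelihood test), with filterByExpr by group, TMM scaling, robust dispersion and 1 mean per group. P-values are two-sided and Benjamini-Hochberg adjusted over 11779 genes. A standard error (SE) is the log2 fold change over the square root of F. CPM used TMM-scaled library sizes. Where a group had 0 reads, the fold is a bound that sets 3 counts over that group, and where it had 1 to 3 reads, a ratio of summed counts with an exact 95% interval. The comparisons of KO with WT within a state were added after the data were seen. The script was tested on simulated data.

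The rule for named genes starts from called genes with no overlap and a mean of at least 20 CPM over the 6 KO libraries. It takes the 12 of them that rose and the 12 that fell by most. It adds the 5 lowest p in each direction of the difference between genotypes. These were taken among called differences with a mean of at least 20 CPM over the 12 libraries of the 4 groups. Saa3, Il1b, Nos2, Trp53 and p53 target genes complete the named genes. Other genes are examples from 30 lists (644 genes) and were chosen after their values were seen. The members and lists were chosen with earlier results of these data known. Some genes of the lists are not reported here by name. Lists were not tested, and 7 lists of other cells' markers give summed CPM. Alternatives were median-ratio and total-count scaling, no filter, DESeq2 1.42.0, only the groups compared, all 48 libraries, a log2 fold change of at least 1, a replicate block and leaving out single libraries.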

Additional observations from a re-analysis of the deposited data

Results flagged for a closer look

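The response to LPS and IFN-γ differed between KO and WT macrophages, by the edgeR test of the difference itself, for 2442 of 11779 genes. Those named by the lowest p had differences in log2 fold change, KO minus WT, of 5.54 (SE 0.46, adjusted p = 4.07e-09) for Gdf15, 4.57 (SE 0.46, adjusted p = 2.28e-07) for Cenpe, 2.80 (SE 0.32, adjusted p = 7.38e-07) for Flrt2, 4.86 (SE 0.53, adjusted p = 1.05e-06) for Spn and 2.67 (SE 0.31, adjusted p = 1.09e-06) for Smc4. In the other direction the differences were -4.71 (SE 0.50, adjusted p = 2.28e-07) for Fscn1, -3.05 (SE 0.33, adjusted p = 2.28e-07) for Lfng, -1.95 (SE 0.24, adjusted p = 1.94e-06) for Tpcn1, -1.85 (SE 0.24, adjusted p = 2.18e-06) for Tm6sf1 and -2.85 (SE 0.36, adjusted p = 2.50e-06) for Vsir. Each of these compares 3 libraries in each of the 4 groups.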

How the results depend on the processing

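The 5244 calls between stimulated and unpolarized KO macrophages numbered 5219 to 5360 with other scalings or DESeq2, 4943 without a filter, 4623 with only the 6 libraries compared and 5963 with all 48. With log2 changes of at least 1 in size required there were 3071, of which 1591 were higher and 1480 lower. When single libraries were left out the calls ran from 4390 to 4830, and those of the difference between genotypes, 2442 in all, from 1777 to 2320. Same-numbered KO libraries did not deviate together (correlations from -0.25 to 0.03), so the numbers were not taken as pairs; with a replicate block 5211 genes were called, 5145 of them also without it, and 2373 for the difference. Of 203 results for single genes, 190 kept their direction and their side of the threshold under all alternatives run, and the exceptions not given above were these. Leaving out single libraries moved the KO log2 fold change of Irf1 between -0.149 and 0.0466 (above 0 without replicate 3 of either group) and of Fscn1 between -0.147 and 0.0602 (above 0 without stimulated replicate 2), and the WT log2 fold change of Cxcl10 between -0.502 and 0.384 (above 0 without unpolarized replicate 2 or stimulated replicate 1 or 3). Cxcl2 in WT macrophages was called with total-count scaling (adjusted p = 0.0423), without a filter and without unpolarized replicate 1, Irf8 there was not called with total-count scaling (adjusted p = 0.14), and Ciita in KO was called without a filter (adjusted p = 0.0343). Without a filter Apoe and Tnf in WT macrophages were also called (adjusted p = 2.63e-16 and 0.00875), and Asl and Tgfb1 in KO were not (0.0697 and 0.106). With a log2 change of at least 1 required, Asl, Tgfb1 and Irf8 in KO and Irf8 in WT macrophages were not called. The cause of these changes was not tested. Depth limits low genes: with at most 4109257 reads in a KO library, a gene of 1 CPM has only a few reads, and genes with 0 reads have bounds in place of fold changes.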
